A study of Mus musculus with 6 samples.

Results

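The noncoding 1700-series genes are mouse genes that still carry the clone names of the RIKEN full-length cDNA project, with 1700 marking clones from an adult testis library. A gene was taken as a member when its identifier began with 1700 and ended in Rik and every transcript accession listed for it began with NR_, the RefSeq prefix for noncoding RNA. The rule used names only and no measured value, and it found 243 genes among the 24411 genes of the files. Expression was measured by RNA sequencing of frozen testes of age-matched C57BL/6 mice, an inbred laboratory strain. The 6 libraries comprised 3 labelled MRP5-/- and MRP9-/- (labelled DKO, for double knockout) and 3 labelled wildtype (labelled WT). The ages, the design of both mutant alleles and whether the wildtype animals were littermates are not given in the sources used here. The labels list the libraries as separate samples and name no animals, so the p-values measure the spread between these samples.

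Long noncoding RNAs are transcripts without a recognised reading frame, and the testis is known for transcribing more of them than most other tissues. Much of this transcription takes place in male germ cells, in late meiosis and in the round spermatids that follow it. Spermatids also transcribe many pseudogenes, and many testis noncoding genes start close to a protein-coding gene that is read in the opposite direction. MRP5 and MRP9 are transporters of the ABCC family, encoded by Abcc5 and Abcc12.

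Total expected counts were 26753721 to 31745969 in the libraries labelled WT and 42673615 to 67131103 in those labelled DKO. The mean fragment length, recovered from the deposited lengths and effective lengths, was 245 ± 13.8 bases in labelled WT and 294 ± 21.4 bases in labelled DKO (SD, n = 3), and the ranges did not overlap. Abcc12 stood at 165, 158 and 158 CPM (counts relative to the library total, scaled by TMM) in labelled WT and at 82.1, 82.4 and 72.6 CPM in labelled DKO. Abcc5 stood at 10.5, 12.3 and 11.4 CPM in labelled WT and at 16.8 ± 0.190 CPM (SD, n = 3) in labelled DKO, so its RNA was higher in the libraries labelled as lacking it. Every direction below is therefore a direction between labels. Germ cell markers, which define the labelled tissue, were all detected. Of marker lists for 8 testis cell types, 2 of 8 spermatocyte genes rose (edgeR, adjusted p under 0.05), and their summed level was 1693 to 1821 TPM (abundance per effective length, with equal library totals) in labelled WT and 1974 to 2183 TPM in labelled DKO. None of 7 round spermatid markers, 0 of 7 spermatogonial markers and 1 of 8 elongating spermatid markers (higher) passed the test. Both Leydig cell genes that passed, of 7, and both Sertoli cell genes that passed, of 8, were lower. The summed Leydig level was 1447 to 3041 TPM in labelled WT and 831 to 1472 TPM in labelled DKO, and the summed Sertoli level was 1131 to 1477 and 1005 to 1244 TPM. No marker stood at 0, and 0 of 5 peritubular and endothelial genes and 0 of 5 macrophage genes passed the test. Among all tested genes 10.8% passed. With effective lengths entered in the fit, as described below, 1 spermatocyte and 1 elongating spermatid gene were higher. In that fit 1 Leydig, 2 Sertoli and 1 peritubular or endothelial gene were lower, and 9.71% of all tested genes passed. The part of cell composition in the changes given below was not tested, and in whole testis fewer cells of a type and less RNA per cell cannot be told apart.

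The members were broadly present in labelled WT testis. Their levels were compared between genes in TPM, which is scaled per effective length. Of the 243 members, 213 reached a mean of at least 1 TPM, 143 at least 10 TPM and 36 at least 100 TPM. The median member stood at 15.2 TPM (quartiles 4.64 and 48.7), against 2.54 TPM over all 24411 genes. The 122 coding 1700-series genes, whose names come from the same clone library but which carry at least 1 coding accession, had a median of 172 TPM. The 410 noncoding genes from other testis clone series of the same project had a median of 4.66 TPM. All 3513 noncoding genes outside the members, these 410 included, had one of 0.01 TPM. These are descriptions of levels, with no test between the lists. The 30 members under 1 TPM included 4 listed at 0 in all 3 labelled WT libraries, and 2 of the 243 members had no count in any of the 6 libraries. Each library held a count for 234 to 238 members. The spread between labelled WT libraries was small, with a median coefficient of variation of 8.99% over the 213 members at 1 TPM or more.

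**Figure D1:**
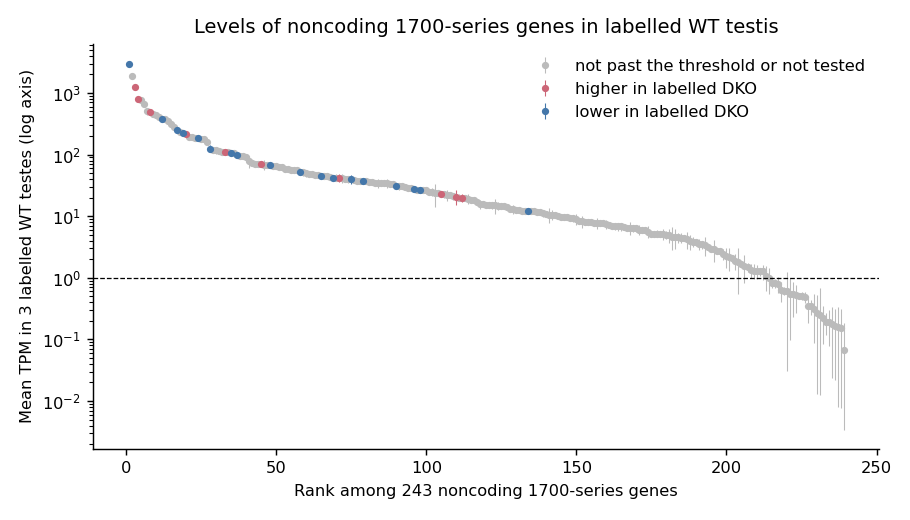
Mean TPM in 3 labelled WT testes (log axis, error bars SD, n = 3) for each member against its rank, coloured by whether it rose or fell in labelled DKO; the 4 members at 0 are not drawn, and a lower bar that would reach 0 is cut short. The dashed line marks 1 TPM, which 213 of 243 members reach, and the members that rose or fell lie between ranks 1 and 134.

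A few genes held much of this RNA. Members made up 2.04%, 1.91% and 1.97% of all TPM in labelled WT and 2.20%, 2.11% and 2.10% in labelled DKO. The lowest labelled DKO library thus lay above the highest labelled WT library, although members took 0.727% to 0.745% of the counts in labelled WT and 0.716% to 0.737% in labelled DKO, which overlapped. The 10 most abundant members held 51.4% to 53.2% of member TPM in every library, and the most abundant alone held 12.1% to 15.9%. By RefSeq biotype, the 228 members listed as long noncoding RNA carried 70.8% of member TPM in labelled WT. The 11 transcribed pseudogenes carried 11.4%, and only 2 noncoding pseudogenes carried 15.9%. RefSeq's gene table lists the remaining 2 members, 1700034I23Rik and 1700003H04Rik, as protein coding, against the noncoding accessions in the files.

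1700027A15Rik was the most abundant member. It is a long noncoding RNA of 416 bases from chr1:73016036-73025508 (GRCm38, plus strand), and its start lies 136 bases from that of Tnp1, which is read the other way and encodes transition protein 1, a protein that replaces histones in spermatid nuclei. In GENCODE the exons of both genes overlap, and with the strand setting not given, reads of the overlap cannot be assigned to either gene with certainty. It stood at 3013, 2872 and 3128 TPM in labelled WT and at 2683, 2736 and 2529 TPM in labelled DKO, so that all labelled DKO libraries were lower. The 2 noncoding pseudogenes followed. 1700019M22Rik, on chromosome 12, measured 2006, 1735 and 1876 TPM in labelled WT and 2389, 2268 and 1709 TPM in labelled DKO, and the groups overlapped. 1700003E24Rik, on the X chromosome, measured 1361, 1149 and 1288 TPM in labelled WT and 2016, 1657 and 1718 TPM in labelled DKO, with no overlap. Its counts carried fractions in all 6 libraries, as happens when reads are shared with another gene, so its level is uncertain. 1700123L14Rik, a transcribed pseudogene inside Tafa1 on chromosome 6 and on the strand opposite to it, came next at 780, 770 and 818 TPM in labelled WT and 940, 879 and 946 TPM in labelled DKO. The next 4 were 1700008K24Rik (mean 764 TPM in labelled WT), 1700028J19Rik (652 TPM), 1700101O22Rik (504 TPM) and 1700016P04Rik (489 TPM). 1700108J01Rik (463 TPM) and 1700009J07Rik (442 TPM) closed the first 10, and within them 1700123L14Rik and 1700008K24Rik, and neighbours from 1700101O22Rik on, differed by less than the sum of their SDs.

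**Figure D2:**
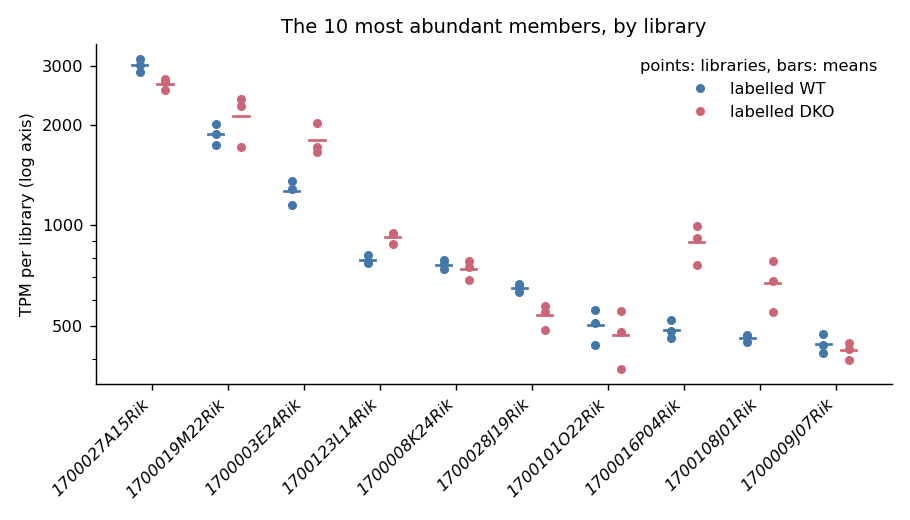
TPM per library (log axis) of the 10 most abundant members, with 1 point per library and a bar at the mean of each group of 3. The labelled WT and labelled DKO points separate for 1700027A15Rik, 1700003E24Rik, 1700123L14Rik, 1700028J19Rik, 1700016P04Rik and 1700108J01Rik, and overlap for the other 4.

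The promoters of members often held an 8-base match that was picked up in the 1700027A15Rik promoter and then counted in all of them. The RefSeq promoter table for GRCm38.p6, which gives 250 bases before and 50 after a gene's start, held 189 of the 243 members. TGACNTCA, where N is any base, is the cyclic AMP response element TGACGTCA with 1 base left free; factors of the CREB, CREM and ATF families bind such elements, and CREM is known for driving spermatid genes. Read on either strand, it occurred in 49 of 189 member promoters (25.9%) and in 2425 of all 27025 promoters (8.97%). It occurred in 23.8% of 101 coding 1700-series promoters and in 19.7% of 319 promoters of the other noncoding testis clones, so the share was not one of members alone. The share was 8.94% over all protein-coding and 9.04% over all long noncoding genes of the table. Within the 100 bases before the start it was 21.2% in members and 5.06% over all promoters. There it was 21.8% in the coding 1700-series and 13.8% in the other noncoding testis clones. The 50 matches lay at a median of 52.5 bases before the start (position -52.5), and 4 of them were the palindrome TGACGTCA. These counts describe letters and show no binding.

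The following 30-base stretches, written 5′ to 3′ along the strand of the gene with the match in capitals, are shown because they come from abundant members, from members that fell in labelled DKO and from a group of near-identical stretches. The first is from chr1:73015975-73016004 and lies between the starts of 1700027A15Rik and Tnp1, the second from chr12:7380388-7380417 (minus strand). The next is from chr9:40333330-40333359 and the one after it from chr2:30237650-30237679 (minus strand). The last 3 come from chr6:117751812-117751841, chr19:3197741-3197770 and chr4:146546916-146546945, all on the minus strand, and differ at few bases although they lie on 3 chromosomes.
1700027A15Rik: cagctctcttgTGACATCActaacctttgc
1700101O22Rik: tcatctgatagTGATGTCAgtcattgttag
1700110K17Rik: ctgacctgtccTGACTTCAtcacatagaca
1700084E18Rik: cgccccggaagTGACGTCAcggccggacgc
1700030F04Rik: tgagccctctgTGACTTCAcagggtaaatc
1700030N03Rik: tgagccctttgTGACATCAcagggtaaatc
1700095A21Rik: tgagccctctgTGACATCAcagggtaaatc

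Members with and without the match had near-equal median levels. The 49 members with it had a median of 14.96 TPM in labelled WT and the 140 without it one of 14.92 TPM. Of the 43 tested members with the match, 0 rose and 3 fell (1700027A15Rik, 1700110K17Rik and 1700084E18Rik). Of the 121 tested without it 5 rose and 10 fell. Over all tested genes 5.75% rose and 5.1% fell, and a link between the match and a change was not tested. Other motifs were less uneven: TATAAA on either strand stood in 13.2% of member promoters and 14.2% of all, and CCAAT in 38.6% and 37.9%. GTTGCC, which matches an arm of the X-box bound by RFX factors, stood in 20.6% of member promoters and 12.7% of all. It stood in 20.8% of coding 1700-series promoters and 18.8% of those of the other noncoding testis clones, so it too was not particular to members. Member promoters had a median of 4 CpG dinucleotides, against 7 over all promoters.

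Between labels, a small set of members rose or fell. The test was edgeR's quasi-likelihood test over all 17110 genes with enough counts, with Benjamini-Hochberg adjustment and a threshold of 0.05, and 213 of the 243 members were among them. Of these 213, 28 passed (13.1%), beside 10.8% of all tested genes. The split was 10 higher in labelled DKO (4.69%, beside 5.75% of all tested genes) and 18 lower (8.45%, beside 5.1%). All but 1 of the 28 changed by less than 2-fold, and 17 of them by less than 1.5-fold. The median log2 fold change over the 213 members was -0.03 (quartiles -0.26 and 0.14), beside -0.0042 over all tested genes, with 100 members above 0 and 113 below. The CPM of the groups did not overlap for 82 members (38.5%), beside 35.9% of all tested genes; 41 were higher in labelled DKO, beside 18.4%, and 41 lower, beside 17.5%. Leaving out 1 library changed the number of members that passed from 28 to 0 without labelled DKO replicate 1, to 1 without labelled WT replicate 2 and to 1 without labelled WT replicate 3. Over all tested genes the share that passed fell with it, to 0.0643%, 0.0747% and 0.0402%. DESeq2, run on the same counts, called 38 of 241 members, beside 13.6% of all genes tested by it. Of the 38, 13 were higher, beside 7.77% of all genes, and 25 lower, beside 5.8%.

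The balance of directions depended on how transcript length entered the fit. RSEM's effective length is the transcript length less the fragment lengths of the library, so in libraries of longer fragments it is smaller, by the largest proportion for short transcripts. The members are short, with a median of 695 bases (304 to 6003). When the effective length of each gene in each library was entered as an offset, 31 of 213 members passed. Over all tested genes the share was 9.71%. Of the 31, 26 were higher, beside 5.59% of all tested genes, and 5 lower, beside 4.12%. The median log2 fold change was then 0.10, beside -0.0024 over all tested genes, with 133 members above 0 and 80 below. The 10 members higher without the offset were all higher with it, and another 16 joined them, each already above 0 without it. Of the 18 lower members 5 stayed lower: 1700110K17Rik, 1700036G14Rik, 1700047M11Rik, 1700026D11Rik and 1700073E17Rik. The count with the offset fell to 1 without labelled DKO replicate 1, to 18 without labelled DKO replicate 2, to 3 without labelled WT replicate 2 and to 0 without labelled WT replicate 3. Over all tested genes the shares were then 0.0526%, 3.62%, 0.0804% and 0.0287%. By limma on log2(TPM + 1), where fold changes are on that scale, 21 of 213 members passed, beside 4.3% of all tested genes. Of the 21, 16 were higher, beside 1.63% of all tested genes, and 5 lower, beside 2.67%. In TPM, which carry the same length scaling, the groups did not overlap for 82 of 213 members, beside 33.2% of all tested genes. Of the 82, 50 were higher, beside 15% of all tested genes, and 32 lower, beside 18.2%.

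Members under 500 bases carried most of the lower calls. Among 47 tested members of that length 2 rose and 10 fell, with a median log2 fold change of -0.17, and among all 211 tested genes of that length 7 rose and 66 fell, with a median of -0.31. With the offset the medians were 0.16 for these members and -0.0077 for all genes of that length, and none of the 10 stayed lower. From 500 to under 750 bases 3 of 69 members rose (4.35%) and 6 fell (8.7%), with a median of -0.01, and 0.16 with the offset. Of all 670 genes of that length 5.82% rose and 17.5% fell (median -0.18). From 750 to under 1000 bases 2 of 48 members rose (4.17%) and 1 fell (2.08%), beside 3.18% and 10.8% of all 911 genes. Of the 49 members of 1000 bases or more 3 rose and 1 fell. Over all genes 5.4% rose and 6.61% fell from 1000 to under 2000 bases, and 6.14% and 2.81% at 2000 or more. Across the 213 tested members Spearman's rho between length and log2 fold change was 0.14 without the offset and -0.21 with it, and it was 0.21 across all 17110 genes without it. These values are across genes, which share their libraries, and carry no p. Fragment length and label cannot be told apart in these 6 libraries, since the fragment lengths of the groups did not overlap.

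**Figure D3:**
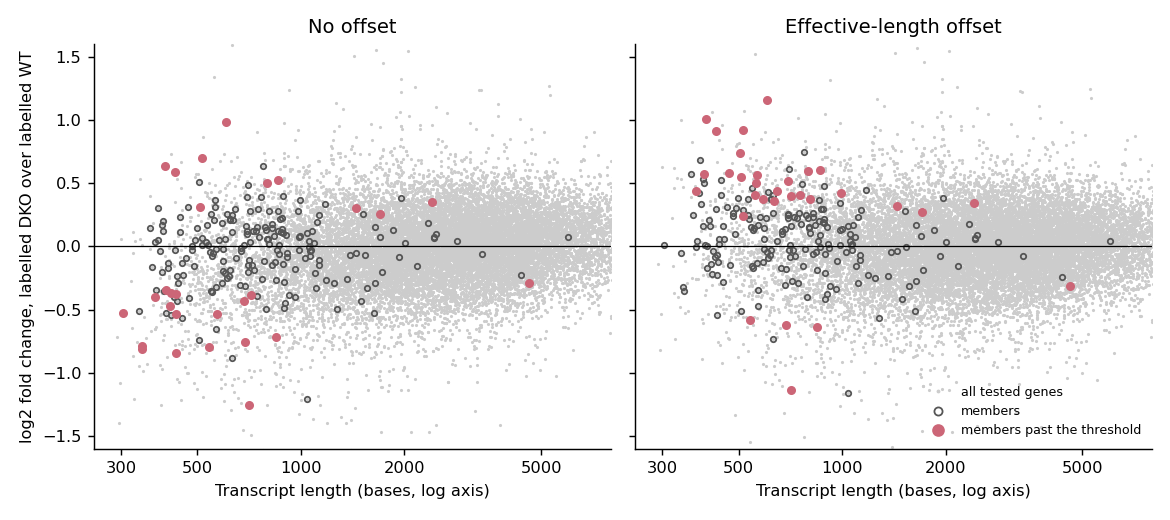
The log2 fold change (labelled DKO over labelled WT) against transcript length (bases, log axis), without an offset on the left and with the effective-length offset on the right, for all tested genes (light grey), members (open circles) and members past the threshold (filled); genes beyond the axes are not drawn. Filled points below 0 and under 500 bases number 10 on the left and 0 on the right.

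Among the 10 most abundant members, 1700016P04Rik had the largest rise. It is a long noncoding RNA of 429 bases at chr6:13413337-13415996 (plus strand), with no other gene of the types counted below within 5 kb. It stood at 66.7, 59.5 and 62.5 CPM in labelled WT and at 89.0, 88.6 and 106 CPM in labelled DKO. All labelled DKO libraries lay above all labelled WT libraries, with a log2 fold change of 0.59 (edgeR, SE 0.0868, adjusted p = 0.0225), which was 0.91 with the offset (adjusted p = 0.00333). In TPM it measured 521, 460 and 484 in labelled WT and 919, 763 and 994 in labelled DKO. Its promoter, chr6:13413087-13413386, is shown because this is the clearest rise among abundant members in both fits. The capitals mark CCAAT on either strand, at -228 and -177, and no TGACNTCA lies in these letters.
1700016P04Rik: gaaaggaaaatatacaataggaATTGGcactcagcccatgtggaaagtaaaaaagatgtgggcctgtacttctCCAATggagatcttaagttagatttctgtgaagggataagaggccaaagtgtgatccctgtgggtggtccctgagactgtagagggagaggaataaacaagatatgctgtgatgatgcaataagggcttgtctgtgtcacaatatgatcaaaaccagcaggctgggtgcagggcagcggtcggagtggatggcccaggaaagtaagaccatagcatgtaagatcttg

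The largest rise belonged to 1700020D14Rik, the single member on the Y chromosome (chrY:206150-207789, plus strand). It measured 11.8, 9.01 and 9.50 CPM in labelled WT and 23.2, 17.5 and 19.2 CPM in labelled DKO. The groups lay well apart, with a log2 fold change of 0.99 (edgeR, SE 0.130, adjusted p = 0.0121; 1.16 and 0.0118 with the offset). Its expected counts were identical to those of Gm29089 in all 6 libraries, so reads of both genes cannot be told apart and the value belongs to the pair. Its promoter, chrY:205900-206199, follows, with TATAAA on the opposite strand in capitals at -129.
1700020D14Rik: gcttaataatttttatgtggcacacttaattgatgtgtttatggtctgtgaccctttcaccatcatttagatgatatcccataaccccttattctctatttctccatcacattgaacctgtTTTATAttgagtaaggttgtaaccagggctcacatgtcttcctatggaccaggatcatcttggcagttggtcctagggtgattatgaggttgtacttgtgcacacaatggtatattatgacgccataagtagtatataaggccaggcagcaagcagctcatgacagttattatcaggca

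Of the other members that rose, 1700066J03Rik (chromosome 13, 516 bases) measured 4.70, 4.12 and 2.62 CPM in labelled WT and 5.89, 5.77 and 6.77 CPM in labelled DKO. The lowest labelled WT library stood apart, and the log2 fold change was 0.70 (edgeR, SE 0.180, adjusted p = 0.0377). 1700027F06Rik (chromosome 6, 403 bases) measured 120, 101 and 105 TPM in labelled WT and 253, 170 and 213 TPM in labelled DKO, and its log2 fold change from CPM was 0.64. It is 1 of the 2 members under 500 bases that rose without the offset, the other being 1700016P04Rik. 1700128A07Rik and 1700109G14Rik, both on chromosome 14, had log2 fold changes of 0.52 and 0.50. 1700052K11Rik rose from 30.8, 32.0 and 36.0 CPM in labelled WT to 45.6, 43.7 and 36.8 CPM in labelled DKO, the lowest of which was close to the highest labelled WT library. Among the most abundant, 1700003E24Rik had a log2 fold change of 0.31 (edgeR, SE 0.0798, adjusted p = 0.0375), and 1700123L14Rik one of 0.26 (SE 0.0712, edgeR adjusted p = 0.0435). The tenth was 1700022A21Rik, at 0.30. 1700108J01Rik, ninth in abundance, had a log2 fold change of 0.31 that missed the threshold (edgeR adjusted p = 0.0637) and one of 0.58 with the offset that passed it (adjusted p = 0.0269); it also passed by DESeq2 (adjusted p = 0.0272).

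The largest fall was that of 1700110K17Rik, a long noncoding RNA of 708 bases at chr9:40333472-40343337 (plus strand). It stood at 13.5, 13.5 and 12.1 CPM in labelled WT and at 5.02, 6.86 and 4.57 CPM in labelled DKO. The highest labelled DKO library lay well under the lowest labelled WT library, with a log2 fold change of -1.25 (edgeR, SE 0.142, adjusted p = 0.00563) that was -1.13 with the offset (adjusted p = 0.0118). It passed in 13 of 15 other settings, with log2 fold changes between -1.45 and -1.13; it did not pass without labelled DKO replicate 1 (adjusted p = 0.0636) or with fragment length as a covariate (adjusted p = 0.999). It is also the single member that passed at an adjusted p under 0.01, and the single one that passed with at least a 2-fold change. How many of all tested genes did so was not counted. The gene lies inside Gramd1b, which encodes a sterol transfer protein, on the opposite strand, and some of their exons overlap. Gramd1b measured 63.5 ± 2.64 TPM in labelled WT and 59.9 ± 2.94 TPM in labelled DKO (SD, n = 3), with a log2 fold change of -0.03 (edgeR, SE 0.0723, adjusted p = 0.826). The promoter of 1700110K17Rik, chr9:40333222-40333521, follows, with TGACTTCA in capitals at -131.
1700110K17Rik: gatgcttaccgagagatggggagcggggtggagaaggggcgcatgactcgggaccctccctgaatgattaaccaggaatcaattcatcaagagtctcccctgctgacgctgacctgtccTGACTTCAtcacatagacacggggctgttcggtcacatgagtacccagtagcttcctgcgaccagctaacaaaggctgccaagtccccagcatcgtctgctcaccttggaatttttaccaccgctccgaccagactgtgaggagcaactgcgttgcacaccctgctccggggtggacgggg

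Among the other members that stayed lower with the offset, 1700036G14Rik (chr3:85317519-85332027, plus strand) measured 18.2, 20.9 and 19.0 CPM in labelled WT and 10.4, 14.5 and 8.76 CPM in labelled DKO. The groups did not overlap, and the log2 fold change was -0.80 (edgeR, SE 0.155, adjusted p = 0.0253; -0.59 and 0.0413 with the offset). No other gene of the types counted below lies within 5 kb of it. Its promoter, chr3:85317269-85317568, is shown for comparison with that of 1700110K17Rik. CCAAT at -77 and TATAAA on the opposite strand at -33 are in capitals.
1700036G14Rik: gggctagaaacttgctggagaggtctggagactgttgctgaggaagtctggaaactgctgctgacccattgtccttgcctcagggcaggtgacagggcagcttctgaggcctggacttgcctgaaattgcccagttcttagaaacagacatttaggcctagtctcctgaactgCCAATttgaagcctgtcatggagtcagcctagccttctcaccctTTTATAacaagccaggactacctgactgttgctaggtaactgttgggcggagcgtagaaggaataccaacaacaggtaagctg

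1700047M11Rik measured 13.8, 16.6 and 15.7 CPM in labelled WT and 8.50, 11.8 and 7.16 CPM in labelled DKO, a log2 fold change of -0.76 (edgeR, SE 0.159, adjusted p = 0.0271). 1700026D11Rik measured 11.6, 13.0 and 12.8 CPM in labelled WT and 6.56, 9.88 and 6.50 CPM in labelled DKO, a log2 fold change of -0.72 (edgeR, SE 0.152, adjusted p = 0.0271). In 1700110K17Rik, 1700036G14Rik, 1700047M11Rik and 1700026D11Rik alike, labelled DKO replicate 2 was the highest of its group. The same held for 1700084E18Rik and 1700027A15Rik, which lost their call with the offset. That library also had the highest summed Leydig marker level of its group. In labelled WT the Leydig sums were 1447, 3041 and 1887 TPM. There replicate 2 was highest for 1700036G14Rik, 1700047M11Rik, 1700026D11Rik and 1700084E18Rik. In contrast, 1700110K17Rik was level in replicates 1 and 2, and 1700027A15Rik was lowest in replicate 2. The part of Leydig cells in these values was not tested. 1700073E17Rik, a transcribed pseudogene of 4600 bases, fell by 0.29 on the log2 scale, and its libraries were not compared in this way.

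**Figure D4:**
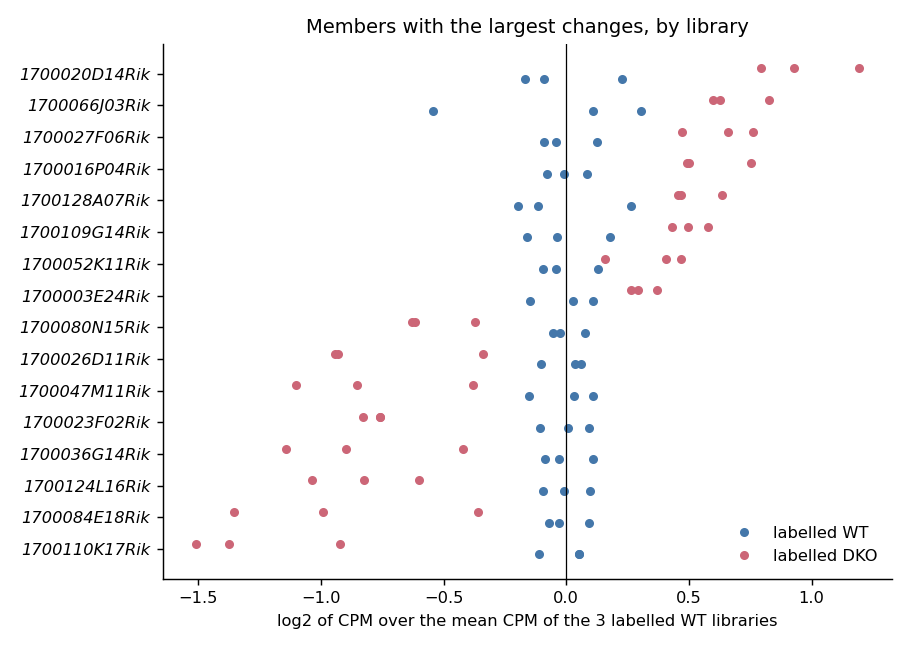
The log2 of each library's CPM over the mean of the 3 labelled WT libraries, for the 8 members that rose most and the 8 that fell most, with 1 point per library. The labelled DKO points of 1700110K17Rik lie furthest to the left and those of 1700020D14Rik furthest to the right, and in no row do the groups overlap, as the rule for naming them required.

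The remaining lower members lost their call with the offset. 1700084E18Rik measured 3.49, 3.79 and 3.39 CPM in labelled WT and 1.39, 2.77 and 1.79 CPM in labelled DKO, a log2 fold change of -0.85 (edgeR, SE 0.219, adjusted p = 0.0377) that became -0.54 (adjusted p = 0.0916). 1700124L16Rik and 1700023F02Rik, of 346 and 345 bases, had log2 fold changes of -0.81 and -0.78, and -0.35 and -0.32 with the offset. 1700080N15Rik had one of -0.54, and -0.22 with the offset. 1700027A15Rik, the most abundant member, measured 361, 349 and 379 CPM in labelled WT and 240, 296 and 250 CPM in labelled DKO. Its log2 fold change was -0.47 (edgeR, SE 0.0867, adjusted p = 0.0237) without the offset and -0.14 (adjusted p = 0.280) with it. The shortest member, 1700031P21Rik (304 bases, chosen after its values were seen), went from -0.53 (edgeR adjusted p = 0.0362) to 0.01 (adjusted p = 0.955). The largest changes that missed the threshold were those of 1700012I11Rik (-1.21, edgeR adjusted p = 0.0923), 1700012D14Rik (-0.88, adjusted p = 0.201) and 1700049E22Rik (-0.74, adjusted p = 0.0503). All 3 were low, with at most 1.88 CPM in any library.

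The position of members relative to other genes was read from RefSeq's GRCm38.p6 gene table, in which all 243 were found. Neighbours were counted only among protein-coding genes, long noncoding RNAs, transcribed pseudogenes and antisense RNAs. No such gene lay within 5 kb of 95 members, and another 42 had only noncoding ones within that distance. Of the rest, 63 overlapped a protein-coding gene on the opposite strand and 5 one on the same strand. Without such an overlap, 21 had a start within 1 kb of the start of a protein-coding gene read the other way. Another 17 lay within 5 kb of a protein-coding gene. Some overlapping members also had a divergent coding start, and they were counted under overlap. The median level in labelled WT was 14.5 TPM for the 95 isolated members, 24.7 TPM for the 21 with a divergent coding neighbour and 12.0 TPM for the 63 opposite a coding gene. The 7 members on the X chromosome had a median of 58.9 TPM. Of 81 tested isolated members 6 rose and 5 fell, of 37 with only noncoding genes nearby 1 and 3, and of 21 divergent members 1 and 3. Of 54 opposite a coding gene 2 rose and 6 fell, of 16 within 5 kb of one 0 and 1, and of 4 on the same strand 0 and 0. Over all tested genes 5.75% rose and 5.1% fell. Whether reads were counted by strand is not given in the sources used here. In GENCODE the exons of both genes overlap in 28 of the opposite-strand pairs and in 5 divergent pairs, among them 1700027A15Rik with Tnp1, 1700084E18Rik with Lrrc8a and 1700124L16Rik with Ankrd53. There the reads of member and neighbour cannot be told apart without it.

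Members and their coding neighbours shared a direction in about as many pairs as they did not. Pairs were counted apart from the classes above, so the divergent pairs are not the same set as the 21 divergent members. Of 21 tested divergent pairs 12 had fold changes of the same sign, with Spearman's rho of 0.22 over the pairs. Of 47 opposite-strand pairs 23 had the same sign, with a rho of 0.03. These are descriptions over pairs that share the same 6 libraries. Tnp1, the divergent neighbour of 1700027A15Rik, measured 21503 ± 327 TPM in labelled WT and 23351 ± 692 TPM in labelled DKO (SD, n = 3). Its log2 fold change was -0.16 (edgeR, SE 0.0898, adjusted p = 0.257) without the offset and 0.16 (adjusted p = 0.165) with it; it is 426 bases long, close to its neighbour. Ankrd53, whose start lies 137 bases from that of 1700124L16Rik, had a log2 fold change of 0.22 (edgeR adjusted p = 0.103), and Atp6v1b1, a subunit of the vacuolar proton pump 2903 bases from that member, fell by 0.34 on the log2 scale (adjusted p = 0.0461). Arl11, 955 bases from the start of 1700109G14Rik, measured 13.9 TPM in both groups (log2 fold change 0.03, adjusted p = 0.890). Frmd4a, opposite 1700080N15Rik, had a log2 fold change of -0.16 (adjusted p = 0.233).

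In 4 pairs both genes passed the test. Lrrc8a, a subunit of the volume-regulated anion channel, fell with 1700084E18Rik, whose start is 137 bases away: its log2 fold change was -0.38 (edgeR, SE 0.0957, adjusted p = 0.0371; -0.40 and 0.0369 with the offset). GENCODE exons of this pair overlap, so its values may share reads. Atp6v1b1 fell with 1700124L16Rik. Tlk2, a kinase acting on chromatin assembly, rose with 1700052K11Rik by the same log2 fold change of 0.35 (edgeR adjusted p = 0.0490 for Tlk2 and 0.0437 for the member). Their exons overlap on opposite strands and the member's counts carried fractions in all 6 libraries. Sar1a, a small GTPase of vesicle budding, rose (log2 fold change 0.27, edgeR adjusted p = 0.0481) while 1700022H01Rik on its opposite strand fell by 0.43 (adjusted p = 0.0343). Of these 4 pairs, 3 thus moved in the same direction and 1 in opposite directions. With the offset none of these 4 pairs had both genes past the threshold: Tlk2 (edgeR adjusted p = 0.0541) and Sar1a (0.0524) missed it, as did 1700084E18Rik (0.0916), 1700124L16Rik (0.130) and 1700022H01Rik (0.0609). Other pairs were not checked for this with the offset.

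**Figure D5:**
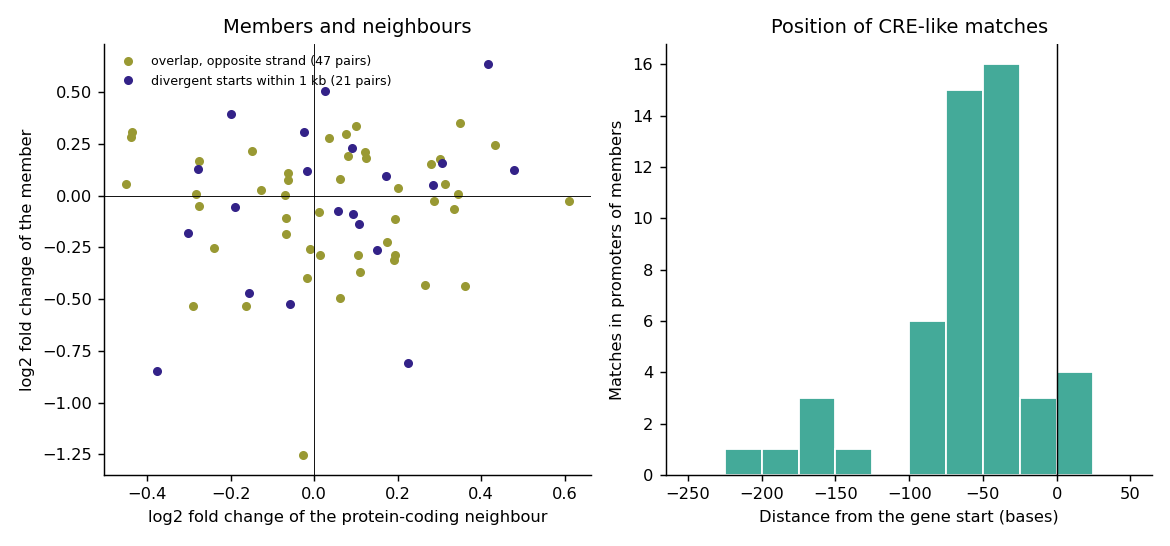
Left, the log2 fold change of each member against that of its protein-coding neighbour, for 47 pairs overlapping on opposite strands and 21 divergent pairs; the points fill all 4 quadrants. Right, the number of TGACNTCA matches in member promoters by distance from the gene start (bases); most of the 50 matches lie in the 100 bases before the start.

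The comparison lists were read from the same fits. Without the offset, of 122 tested coding 1700-series genes 16 rose (13.1%) and 7 fell (5.74%), with a median log2 fold change of 0.06. Of 351 other noncoding testis clones 16 rose (4.56%) and 15 fell (4.27%), with a median of 0.03. Of all 1108 tested noncoding genes outside the members, these clones included, 46 rose (4.15%) and 45 fell (4.06%), with a median of -0.0042. Over all tested genes 5.75% rose and 5.1% fell. With the offset the 3 lists gave 22 higher and 5 lower, 23 and 10, and 57 and 28, with medians of 0.13, 0.09 and 0.04, beside 26 and 5 and a median of 0.10 for the members. Over all tested genes 5.59% were higher and 4.12% lower with the offset. The median lengths of the 3 lists were 993, 1093 and 753 bases. The lists were not tested against each other.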

How the data were processed

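Per the file headers, the authors deposited RSEM gene-level output, 1 file per library without pooling, giving for each gene 2 lengths (full and effective), an expected count (an estimated count of fragments), TPM and FPKM. The FPKM values the authors deposited were not used. Per the submitters' processing notes, STAR 2.7.0f, RSEM 1.2.31, DESeq2 1.12.3 and mm10 were named; the strand setting and read filters are not given in the sources used here. The authors' TPM values are per effective length, with library totals made equal.

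Expected counts were rounded, since 93.2% were whole. Genes were kept by filterByExpr (17110 of 24411), scaled by TMM and tested with edgeR 4.0.16 (glmQLFit, glmQLFTest, R 4.3.3), labelled DKO over labelled WT, with genotype as the only term and Benjamini-Hochberg adjustment over all tested genes. The SE is the absolute log2 fold change over the square root of F. The effective-length offset follows each gene and library. The fits were tested on simulated data. The mean fragment length was taken from genes longer than 3000 bases, as the median gap between full and effective length, plus 1. Alternatives were DESeq2 1.42.0, its size factors, other filters, limma 3.58.1 on log2(TPM + 1) and log2(TPM + 0.1), fragment length as a covariate, thinning, stricter thresholds and leaving out each library.

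The members and lists were chosen with earlier results of these data known. Members named were the 10 with the highest mean TPM in labelled WT; of those past the threshold (average log2 CPM 0 or more, groups not overlapping), the 8 that rose and the 8 that fell most; the 3 largest changes that missed it; the 6 neighbour pairs with the smallest p of the member; and any member past the threshold with counts identical to another gene. Others were named after their values were seen. Of the 243 members, 239 matched the RefSeq GRCm38.p6 gene table by symbol and 4 by accession; promoter sequences are RefSeq's, and exon overlaps come from GENCODE M21.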

Additional observations from a re-analysis of the deposited data

How the results depend on the processing

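No paired analysis was possible because replicate numbers were given in order of deposition and the labels tie no library of 1 group to one of the other. With fragment length as a covariate 0 members passed (0 higher, 0 lower), 19 having an unadjusted p under 0.05; 1 gene of 17110 passed in edgeR. At an adjusted p under 0.01, and with at least a 2-fold change, 1 member passed (0 higher, 1 lower). No share over all genes was counted for these thresholds or for unadjusted p, so such member counts have nothing to be set beside. The effective-length offset gave 26 higher and 5 lower, limma on log2(TPM + 1) 16 and 5, and on log2(TPM + 0.1) 19 and 9. The shares of all tested genes that passed in these fits were 9.71%, 4.3% and 5.53%. The median log2 fold change of members turned to 0.10, 0.0515 and 0.0522 in these fits, where that of all genes was -0.0024, -0.03 and -0.04; the cause was not tested. DESeq2 size factors, DESeq2, no filter, a mean count of at least 50 and thinning gave 24 to 38 members. Over all genes 10.1% to 14% passed in these settings. Leaving out 1 library gave 0 to 32 members, 0 to 12 higher and 0 to 20 lower, with medians from -0.07 to -0.0088, and 0.0402% to 17.7% of all genes passed; without labelled DKO replicate 1, 0 members passed and 48 had an unadjusted p under 0.05. Leaving out 1 library with the offset was a setting added after seeing the data. It gave 0 to 33 members, 0 to 28 higher and 0 to 7 lower, and 0.0287% to 16.2% of all genes passed. Without labelled WT replicate 3, 0 members passed and 59 had an unadjusted edgeR p under 0.05. 1700019M22Rik turned from 0.06 to -0.33 with the covariate and to -0.0465 to 0.19 with 1 library left out (-0.0048 without labelled DKO replicate 1, -0.0140 without labelled WT replicate 2), and 1700008K24Rik from -0.06 to 0.0692 with the covariate; neither passed in any of these. Members at 0.5 TPM or more numbered 225, at 5 TPM or more 179, and at 1 TPM or more 212 to 214 with a labelled WT library left out. There were 3 libraries a group, fragment length and depth did not overlap between labels, and 30 members had too few counts for a test.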

Other observations

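Gene symbols have moved on for a few members. RefSeq's GRCm38.p6 annotation has 1700019B21Rik listed as Tslrn1, 1700020I14Rik as Oip5os1, 1700003G13Rik as Lncbate3 and 1700024F13Rik as 2810429I04Rik. Several short members were close to level between labels in CPM and separated in TPM; they were chosen after their values were seen. 1700041C23Rik (397 bases) measured 200, 188 and 198 TPM in labelled WT and 308, 229 and 310 TPM in labelled DKO, and its log2 fold change was 0.20 (edgeR adjusted p = 0.152) without the effective-length offset and 0.57 (adjusted p = 0.0276) with it. 1700010K23Rik (376 bases) measured 173, 182 and 189 TPM in labelled WT and 241, 215 and 259 TPM in labelled DKO; its log2 fold change was 0.04 without and 0.44 with the offset. 1700052I22Rik (377 bases) was not level in CPM but also moved upward with the offset. Its log2 fold change went from -0.40, which passed as lower, to -0.0085, which did not pass. Of the 243 members, 15 had fractional counts and 5 had counts identical to those of another gene in every library, 1 of them, 1700020D14Rik, past the threshold.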
